A study of Mus musculus with 4 samples.

Results

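GRK6-/- HSC were compared with WT HSC across the transcriptome, with 1 library of each and no replicate. GRK6 is a G protein-coupled receptor kinase. Such kinases phosphorylate activated receptors, which then bind arrestins and stop signalling through G proteins. HSC here means the Lin-c-kit+sca-1+ bone marrow fraction, which holds stem cells together with the earliest multipotent progenitors. From this fraction arise the erythroid, megakaryocytic, granulocytic, monocytic and lymphoid lineages, and transcripts typical of single lineages are known to be detectable in it before commitment. The comparison shows which of these lineage genes, and which redox, DNA repair and growth genes, stood at different levels in the GRK6-/- library.

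Both groups came from mice of C57BL/6 background, either wild type or homozygous for a GRK6 knockout allele bred from heterozygous parents, with no treatment named. For each library, 13-15 sorted cells from 3-4 mice were lysed singly, and their cDNA was amplified over 20 + 10 PCR cycles and pooled. The labels give no age, and the methods describe mice in the age range of young adults, not tied to these libraries. The other 2 of the 4 libraries hold CLP, which were sorted for Il-7Ra besides the same markers, from WT and GRK6-/- mice, and their values are given beside those of HSC. No library measures the spread between animals, cells or amplifications, so no difference below has an error or a p-value. In such pools, fewer cells of a type and less RNA per cell cannot be told apart.

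Levels are FPKM, fragments scaled to transcript length and library size, so genes can be compared with each other per length. Differences are log2((FPKM + 1) ratio), GRK6-/- over WT, and a difference of 1 is read as 2-fold. Where 2 levels are joined by "against", the first is WT HSC and the second GRK6-/- HSC. Genes were ranked if they reached 10 FPKM in both HSC libraries or 20 FPKM in 1 of them. Of 12417 genes with a value in any library, 11624 had a value in HSC and 4946 were ranked. On both sides of this limit stood 9430023L20Rik, which was inside it at 20.0 FPKM in WT HSC and 7.32 FPKM in GRK6-/- HSC, and Tbc1d20, which was outside it at 9.46 and 19.99 FPKM. The lowest values in the files put the depth at roughly 2.88e+06 fragments in WT HSC and 3.76e+06 in GRK6-/- HSC. At that depth, 10 FPKM in a transcript of 2 kb is about 57.7 fragments in WT HSC and 75.2 in GRK6-/- HSC. These fragments followed amplification and are not independent molecules.

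Of the ranked genes, 772 (15.6%) were at least 2-fold higher in GRK6-/- HSC and 793 (16.0%) at least 2-fold lower, and the median difference was 0.01. These 2 percentages are the background for every gene list below. The HSC pair differed less than the 3 other pairs read by the same rule, which share libraries with it or with each other. The median absolute difference in the HSC pair was 0.59. At least 2-fold either way were 31.6% of ranked genes in the HSC pair, 44.1% between the CLP genotypes, 41.0% between WT CLP and WT HSC, and 40.7% between GRK6-/- CLP and GRK6-/- HSC. Abundant genes differed least: at a mean of 300 FPKM or more, 7.38% of 271 genes were higher and 4.43% lower, against 17.9% and 18.9% of 2247 genes between 10 and 30 FPKM.

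**Figure D1:**
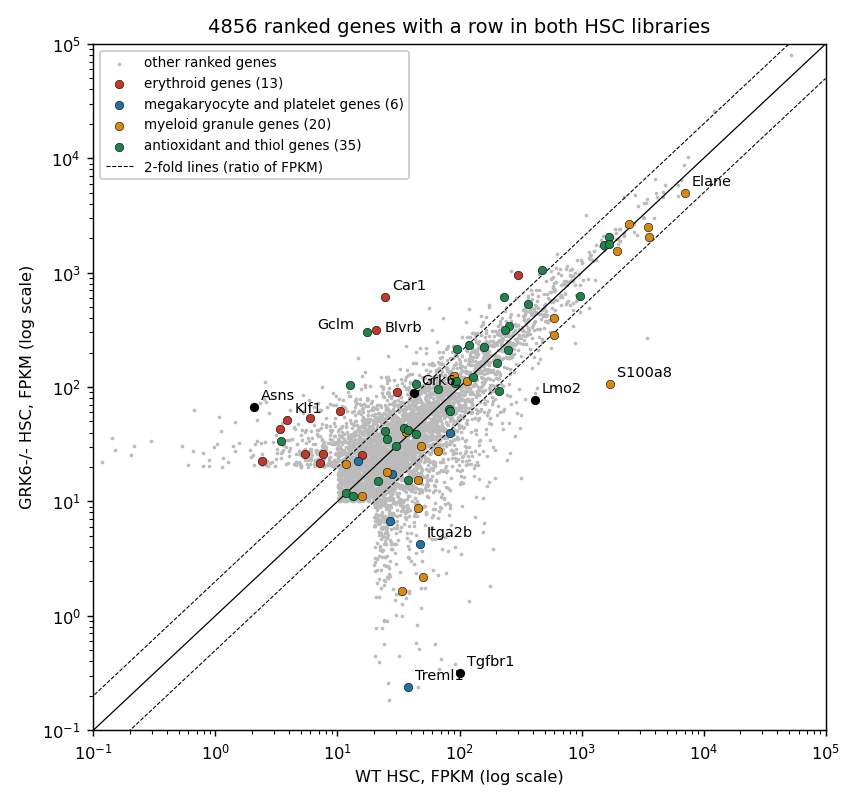
FPKM of the 4856 ranked genes with a row in both HSC libraries, WT HSC on the x axis and GRK6-/- HSC on the y axis, both on log scales. Each point is 1 gene in 1 library per genotype, the solid line marks equal FPKM and the dashed lines a 2-fold ratio. Car1, Blvrb and Gclm lie above the lines, and S100a8, Itga2b, Treml1 and Tgfbr1 lie below them.

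The targeted gene came first. Grk6 (Entrez 26385, mm9 chromosome 13, 55546695 to 55562288) stood at 42.7 FPKM in WT HSC and 89.4 FPKM in GRK6-/- HSC, and at 26.9 FPKM in WT CLP and 57.6 FPKM in GRK6-/- CLP. Its row was thus 2.09-fold higher in the library labelled GRK6-/- HSC, the opposite of the direction the label would give. The knockout allele lacks internal exons, and a value summed over the whole gene also counts reads from the exons that remain, so this row cannot check the deletion. The labels could not be checked from the files, and GRK6-/- names the library as labelled throughout. Among the other kinases of the family, Adrbk2 (GRK3) read 33.2 against 16.0 FPKM in WT and GRK6-/- HSC, a difference of -1.01. Adrbk1 (GRK2) read 50.0 against 58.0 FPKM and the arrestin Arrb2 29.4 against 20.9 FPKM, both within 2-fold. Grk5 read 0.110 FPKM in WT HSC and had no row in GRK6-/- HSC.

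The sorted fraction was checked against its markers. Kit, the receptor of the c-kit gate, stood at 53.3 FPKM in WT HSC and 34.4 FPKM in GRK6-/- HSC. Sca-1 is encoded by Ly6a, which had no row of its own: the Ly6 cluster on chromosome 15 (mm9, 74810242 to 75262259) formed 1 row, at 1998 FPKM in WT HSC and 1792 FPKM in GRK6-/- HSC. Il7r, the receptor of the CLP gate, had no row in WT HSC and 1.08 FPKM in GRK6-/- HSC, against 120.1 FPKM in WT CLP and 75.1 FPKM in GRK6-/- CLP. All 4 libraries held transcripts of the Y-linked gene Eif2s3y, at 45.3 to 60.1 FPKM, and Xist was at 0.0272 FPKM in WT HSC, at 0.0139 FPKM in GRK6-/- HSC and without a row in CLP.

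Erythroid genes were the list that stood farthest above the rest in GRK6-/- HSC. The list holds transcription factors, haem enzymes, membrane proteins and globins of red cell precursors. Of its 30 genes, 24 had a row in HSC and 15 were ranked, of which 14 were at least 2-fold higher in GRK6-/- HSC and none at least 2-fold lower, against 15.6% higher and 16.0% lower of all ranked genes. The median difference was 2.77. Of the 15, 9 passed the rank limit through GRK6-/- HSC alone and so had to stand higher there. These were Gata1, Klf1, Gfi1b, Hba-a2, Tfrc, Ermap, Aqp1, Sphk1 and Tspo2. Of the 6 with at least 10 FPKM in both libraries, 5 were at least 2-fold higher. Below the rank limit, 8 of 9 members with a row were higher in GRK6-/- HSC. Summed over the list, the level was 455 FPKM in WT HSC and 2529 FPKM in GRK6-/- HSC. In CLP it was 310.4 FPKM for WT and 18993 FPKM for GRK6-/-. Single genes made up much of these sums: Hba-a2 alone read 17219.5 FPKM in GRK6-/- CLP. In GRK6-/- HSC, Car1 and Car2 read 612 and 955 FPKM.

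The regulators of the programme were low in WT HSC. Klf1, the transcription factor that switches on many red cell genes, read 3.88 FPKM in WT HSC and 51.5 FPKM in GRK6-/- HSC, a 13.3-fold ratio, and 0.16 FPKM in WT CLP and 73.3 FPKM in GRK6-/- CLP. Gata1, the master regulator of erythroid and megakaryocytic genes, read 5.45 FPKM in WT HSC and 26.1 FPKM in GRK6-/- HSC, and 0.265 FPKM in WT CLP and 15.7 FPKM in GRK6-/- CLP. In both genotype pairs the GRK6-/- library held the higher level of these factors. In HSC, Klf1 and Gata1 passed the rank limit through GRK6-/- HSC alone, so their direction there was fixed. Gfi1b, a repressor needed in both lineages, read 7.66 against 25.8 FPKM in the HSC pair. Epor, the erythropoietin receptor, was below the rank limit at 3.19 against 18.0 FPKM. Zfpm1 (FOG1), the cofactor of Gata1, read 3.70 against 8.72 FPKM.

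Promoters of 3 erythroid genes are shown because each holds a GATA hexamer (AGATAA, the form AGATAG, the form TGATAA or the form TGATAG, on either strand), the letters that GATA factors recognise. The windows are the 250 bases before the gene start in RefSeq, build GRCm38.p6, written 5′ to 3′ on the gene's strand with the hexamer in capitals, which reads TTATCA where it lies on the other strand. Klf1 is at chr8:84901732-84901981, plus strand, Ermap at chr4:119189996-119190245, minus strand and Rhd at chr4:134864286-134864535, plus strand.
Klf1: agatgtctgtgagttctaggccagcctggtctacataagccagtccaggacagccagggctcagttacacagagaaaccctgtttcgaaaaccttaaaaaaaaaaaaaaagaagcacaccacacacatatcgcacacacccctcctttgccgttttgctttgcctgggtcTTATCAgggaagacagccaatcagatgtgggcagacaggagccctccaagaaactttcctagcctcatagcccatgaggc
Ermap: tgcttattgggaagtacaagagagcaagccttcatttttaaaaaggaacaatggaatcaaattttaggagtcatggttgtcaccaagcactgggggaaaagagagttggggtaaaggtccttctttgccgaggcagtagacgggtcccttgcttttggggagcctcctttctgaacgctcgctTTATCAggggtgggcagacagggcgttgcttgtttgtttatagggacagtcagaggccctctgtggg
Rhd: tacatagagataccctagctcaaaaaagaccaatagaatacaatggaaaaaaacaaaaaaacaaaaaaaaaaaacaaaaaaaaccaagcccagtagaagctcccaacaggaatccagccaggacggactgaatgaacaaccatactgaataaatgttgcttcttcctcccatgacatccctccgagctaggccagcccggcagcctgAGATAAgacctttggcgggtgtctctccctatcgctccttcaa
The hexamer began 80 bases before the start in Klf1, 67 in Ermap and 43 in Rhd. Of 32851 RefSeq promoter windows of this length, 26.5% held a GATA hexamer. Among the 14 erythroid genes at least 2-fold higher, 9 had a single window, and it held the hexamer in 5 of them (Klf1, Hba-a2, Ermap, Gfi1b and Rhd). The window of Hemgn, the only ranked erythroid gene within 2-fold, held the hexamer too. The windows of Gata1, Aqp1, Urod and Tspo2 did not hold these letters. Such a match is a description of the sequence and not a site.

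Enzymes and membrane proteins of red cells were higher as well. Car1, a carbonic anhydrase of red cells, read 24.5 FPKM in WT HSC and 612 FPKM in GRK6-/- HSC, a 25.0-fold ratio, and 1.94 FPKM in WT CLP and 67.3 FPKM in GRK6-/- CLP. Blvrb, a biliverdin reductase abundant in red cells, read 20.6 FPKM in WT HSC and 313 FPKM in GRK6-/- HSC, and 1.27 FPKM in WT CLP and 354 FPKM in GRK6-/- CLP. Car1 had the largest positive difference of all 4279 genes with at least 10 FPKM in both HSC libraries, at a log2 difference of 4.59. Car2, which is also expressed in multipotent progenitors, read 299 against 955 FPKM in the HSC pair. Urod, an enzyme of haem synthesis, read 30.9 against 90.9 FPKM. Tfrc, the transferrin receptor that takes up iron, read 7.22 against 21.6 FPKM.

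Blood group and membrane genes stood in the same order. Ermap, a red cell membrane protein, read 3.38 against 42.6 FPKM, and Rhd, the Rh blood group protein, 10.6 against 61.4 FPKM. Aqp1, a water channel, read 2.42 against 22.4 FPKM. Kel, the Kell blood group protein and not on the list, read 0.141 against 35.6 FPKM and had no row in WT CLP and 32.6 FPKM in GRK6-/- CLP. Rhag, the Rh-associated glycoprotein, had no row in WT HSC and read 17.6 FPKM in GRK6-/- HSC. Sphk1 and Tspo2, also on the list, lacked a row in WT HSC and read 87.6 and 49.7 FPKM in GRK6-/- HSC, and no other symbol's row overlapped either locus. The same held for Slc38a5 at 46.3 FPKM and Cldn13 at 32.3 FPKM, which were named after their values were seen, as was Kel.

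Genes of late red cell maturation differed among themselves. Hba-a2, an alpha globin, read 5.98 FPKM in WT HSC and 53.2 FPKM in GRK6-/- HSC, against 17.4 FPKM in WT CLP and 17219.5 FPKM in GRK6-/- CLP. Alas2, the first enzyme of haem synthesis in red cells, read 0.562 against 2.54 FPKM. Slc4a1 (band 3) read 0.0752 FPKM in WT HSC and had no row in GRK6-/- HSC. Hba-a2 was thus far lower in GRK6-/- HSC than in GRK6-/- CLP. Hemgn, a nuclear protein of haematopoietic progenitors, was the only ranked member within 2-fold, at 15.7 against 25.5 FPKM.

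**Figure D2:**
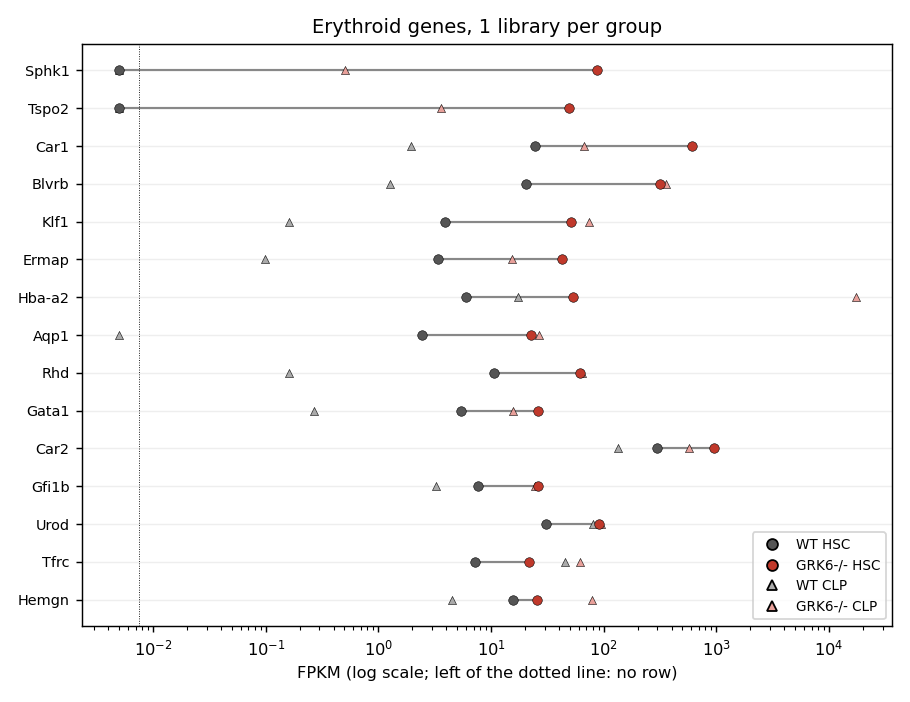
FPKM on a log scale of the 15 ranked erythroid genes in each of the 4 libraries, ordered by the difference between the HSC libraries. Circles are HSC and triangles CLP, grey is WT and red GRK6-/-, and points left of the dotted line have no row. The GRK6-/- HSC circle lies to the right of the WT HSC circle for all 15 genes, 9 of which were ranked through GRK6-/- HSC alone.

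Megakaryocyte and platelet genes, which share an early progenitor with red cells, mostly went the other way among ranked members. Of 22 genes, 17 had a row in HSC and 7 were ranked. None of the 7 was at least 2-fold higher and 5 were at least 2-fold lower, 71.4% against 16.0% of all ranked genes. The median was -1.86. Of the 7, 4 passed the limit through WT HSC alone and so had to stand lower in GRK6-/- HSC. Among the 3 at 10 FPKM or more in both, 1 was at least 2-fold lower and the median was -0.67. Below the rank limit, 4 of 10 members with a row lay above 0 and 6 below. The summed level was 341 FPKM in WT HSC and 114 FPKM in GRK6-/- HSC.

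Platelet granule and receptor genes were the members that differed most. Pf4, platelet factor 4, read 75.4 FPKM in WT HSC and had no row in GRK6-/- HSC, and 10.7 FPKM in WT CLP and 36.6 FPKM in GRK6-/- CLP. No other symbol's row overlapped the Pf4 locus there. Treml1, a receptor of platelet alpha granules, read 37.5 FPKM in WT HSC and 0.238 FPKM in GRK6-/- HSC, with no row in either CLP library. Itga2b, the alpha subunit of the fibrinogen receptor (CD41), read 47.0 FPKM in WT HSC and 4.2 FPKM in GRK6-/- HSC, an 11.2-fold lower level. All 3 were ranked through their level in WT HSC alone. Gp9, part of the von Willebrand factor receptor, read 27.0 against 6.70 FPKM, and the tetraspanin Cd9 83.7 against 39.7 FPKM. Pde5a, a phosphodiesterase abundant in platelets that is not on the list, read 92.3 against 0.377 FPKM. In CLP the genotypes stood in the reverse order for Itga2b, at 2.52 and 46.0 FPKM in WT and GRK6-/- CLP, and for Gp9, at 0.344 and 32.8 FPKM. Pde5a kept its order there, at 2.93 FPKM in WT CLP and 0.052 FPKM in GRK6-/- CLP. Vwf was at 0.114 FPKM in WT HSC and had no row in GRK6-/- HSC.

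Granule genes of the neutrophil and promyelocyte series were lower or similar in GRK6-/- HSC. Of 30 genes, 20 were ranked, and none was at least 2-fold higher while 7 were at least 2-fold lower, a share of 35.0% against 16.0% of all ranked genes. The median difference was -0.54, and 16 of the 20 lay below 0. Of the 17 with at least 10 FPKM in both, 4 were at least 2-fold lower. The summed level was 21936 FPKM in WT HSC and 14956 FPKM in GRK6-/- HSC. In CLP it was 13737 FPKM for WT and 10156 FPKM for GRK6-/-.

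The primary granule genes were among the most abundant transcripts of both libraries and differed by less than 2-fold. Elane, neutrophil elastase, read 7008 FPKM in WT HSC and 4999.8 FPKM in GRK6-/- HSC. Mpo, myeloperoxidase, read 3549.7 against 2038 FPKM, Prtn3 3494 against 2512 FPKM and Ctsg 1958 against 1558 FPKM. All 4 were lower in GRK6-/- HSC. Some genes of later granulocytes differed more, 3 of them (S100a9, Chi3l3 and Fcnb) ranked through WT HSC alone and so bound to be lower. S100a8, a calgranulin subunit of neutrophils, read 1706 FPKM in WT HSC and 106 FPKM in GRK6-/- HSC, a 16.1-fold lower level, and 439 FPKM in WT CLP and 371 FPKM in GRK6-/- CLP. Its partner S100a9 read 33.6 against 1.63 FPKM, and Chi3l3 49.9 against 2.19 FPKM. Fcnb, a ficolin, read 45.9 against 8.82 FPKM, Lcn2 45.3 against 15.5 FPKM and Hp 66.5 against 27.8 FPKM. Ngp and Ltf, of secondary granules, had no row in either HSC library. Cebpe, the factor behind secondary granules, read 36.3 against 40.0 FPKM, and Csf3r, the G-CSF receptor, 25.5 against 18.0 FPKM.

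**Figure D3:**
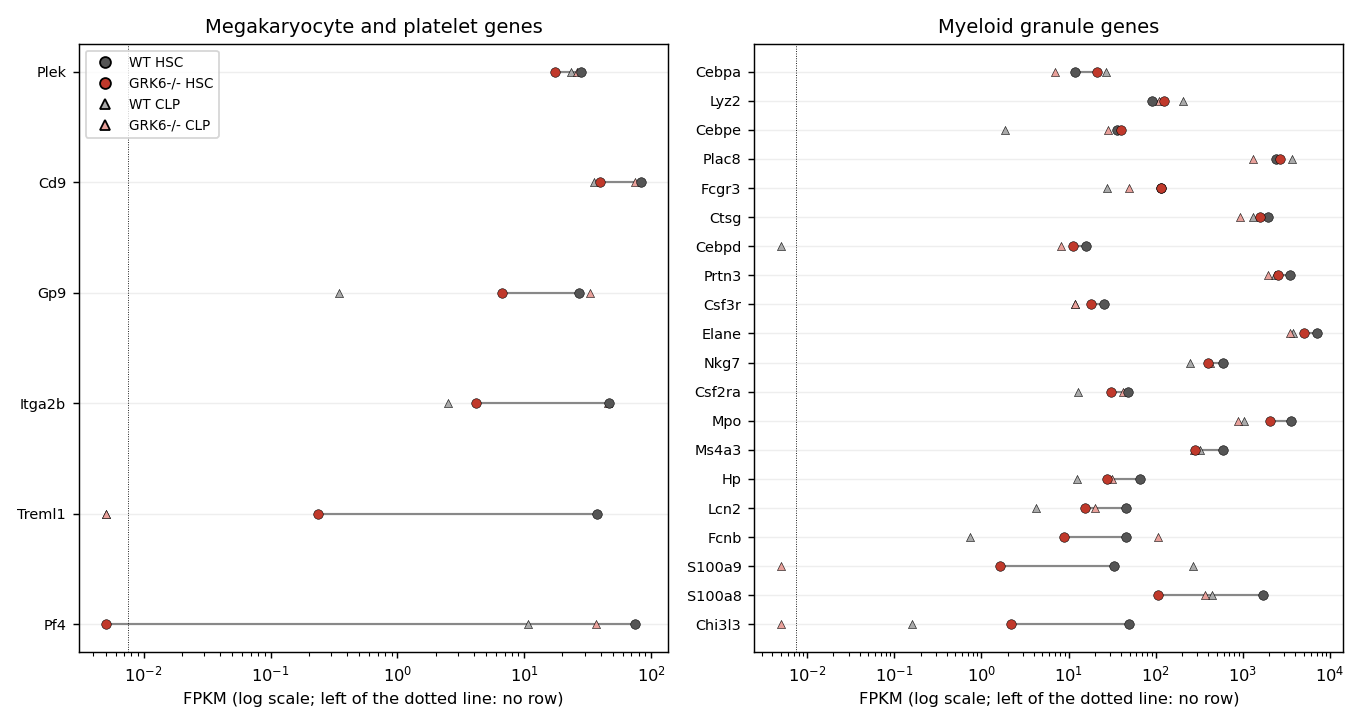
FPKM on a log scale of 6 of the 7 ranked megakaryocyte and platelet genes (left) and the 20 ranked myeloid granule genes (right) in each of the 4 libraries, 1 library per group. Circles are HSC and triangles CLP, grey is WT and red GRK6-/-, and points left of the dotted line have no row. Itga2b, Treml1 and Pf4 have their GRK6-/- HSC circle far to the left of the WT circle, and Elane, Prtn3 and Ctsg have the pair close together.

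Monocyte, mast cell and lymphoid genes gave few ranked members. Of 24 genes of monocytes, macrophages and dendritic cells, 4 were ranked, 2 of them at least 2-fold higher and none lower. Both passed the limit through GRK6-/- HSC alone, and neither of the 2 at 10 FPKM or more in both passed 2-fold. Irf8, the factor that directs monocyte and dendritic cell fate, read 1.12 FPKM in WT HSC and 41.2 FPKM in GRK6-/- HSC, a 36.9-fold ratio, and 152 FPKM in WT CLP and 190.3 FPKM in GRK6-/- CLP. F13a1, the A subunit of coagulation factor XIII, read 5.28 against 26.0 FPKM. The macrophage marker Cd68 read 31.0 against 19.5 FPKM, and below the limit Cd14, the endotoxin co-receptor, read 8.48 against 0.564 FPKM. Mcpt8, a basophil protease, read 19.1 against 74.9 FPKM, and Cpa3, a mast cell protease, 116 against 47.8 FPKM, in opposite directions. Of 12 ranked lymphoid priming genes, 2 were at least 2-fold higher and 2 at least 2-fold lower, with a median of 0.02. Flt3, whose receptor marks lymphoid-primed progenitors, read 54.5 against 23.8 FPKM. Of 20 B lineage genes, 2 were ranked, and of 20 T and NK cell genes, 2. None of 18 stromal and endothelial genes was ranked, and their sum was 40.6 FPKM in WT HSC and 34.2 FPKM in GRK6-/- HSC.

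Ranked stem cell genes mostly lay within 2-fold. Of 11 ranked, 1 was at least 2-fold higher, 1 at least 2-fold lower and 9 within 2-fold, with a median of -0.58. Cd34, a surface marker of progenitors, read 151 against 338 FPKM, and Pdzk1ip1 78.5 against 35.8 FPKM. Meis1 read 25.3 against 20.8 FPKM, Hlf 22.3 against 12.7 FPKM and Hoxa9 11.7 against 17.9 FPKM, all 3 being transcription factors of stem cells. Of 15 members below the rank limit, 4 lay above 0 and 11 below. Slamf1 (CD150), a marker of long-term stem cells, read 8.91 against 0.689 FPKM and Mecom 6.42 against 2.67 FPKM, while Esam read 8.04 against 12.5 FPKM and Procr (EPCR) had no row in WT HSC and read 7.85 FPKM in GRK6-/- HSC. Of 14 ranked haematopoietic transcription factors, none was at least 2-fold higher and 2 were at least 2-fold lower. Lmo2, a bridging protein in the complex of Tal1 and Gata factors, read 414 FPKM in WT HSC and 77.2 FPKM in GRK6-/- HSC, a 5.36-fold lower level, and 251 FPKM in WT CLP and 323 FPKM in GRK6-/- CLP. Its partners Tal1 and Ldb1 read 33.2 against 19.2 FPKM and 75.2 against 59.7 FPKM, and Cbfb, the partner of Runx1, 64.2 against 29.7 FPKM.

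**Figure D4:**
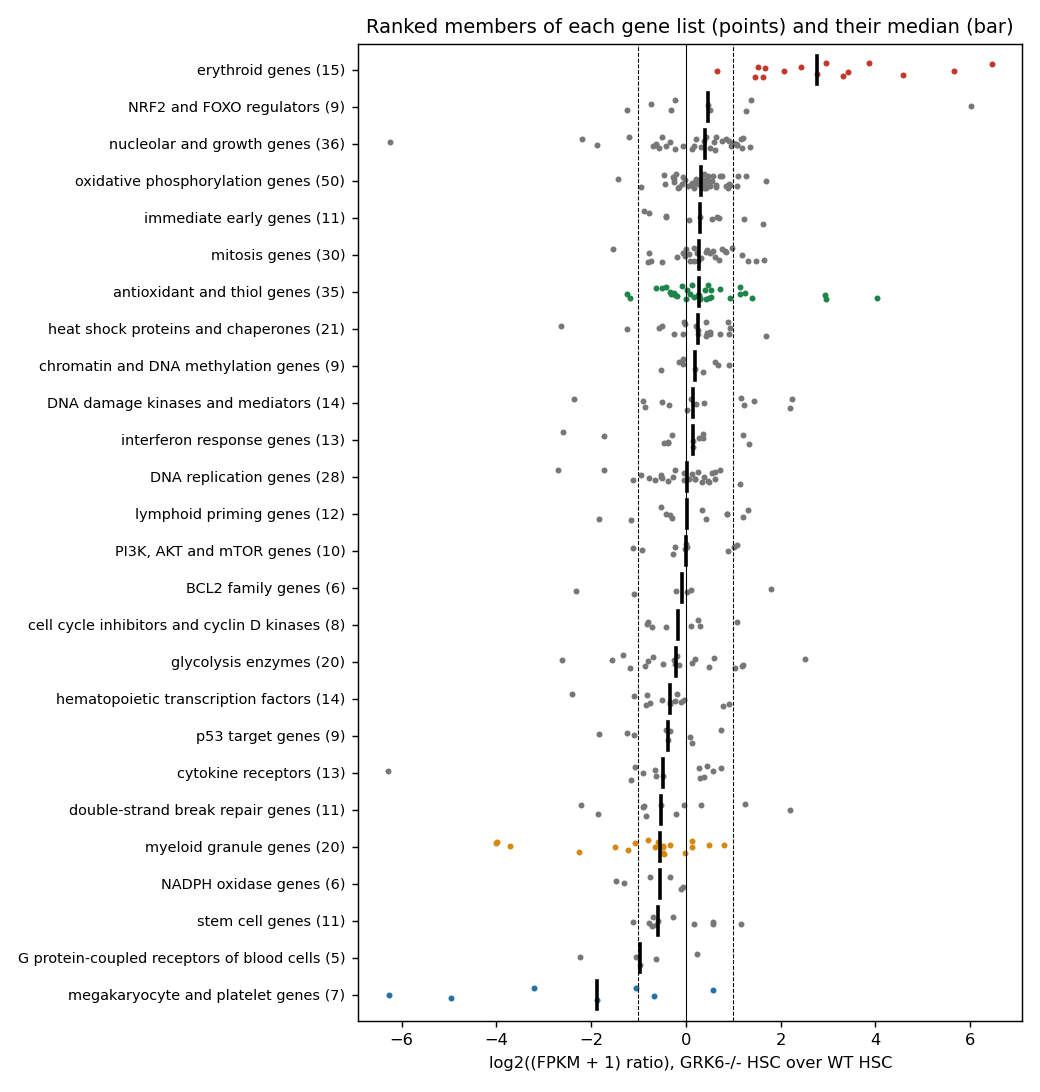
log2((FPKM + 1) ratio) of GRK6-/- HSC over WT HSC on the x axis for the ranked members of each gene list with at least 5, the number in brackets. Each point is 1 gene, the bar is the list's median, and the dashed lines mark 2-fold. The erythroid list has its median at 2.77 and the megakaryocyte and platelet list at -1.86, and the other medians lie between -0.97 and 0.46.

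Antioxidant and thiol genes were examined because the study asked whether GRK6 bears on the handling of reactive oxygen species. Cells dispose of superoxide through superoxide dismutases and of peroxide through catalase, glutathione peroxidases and peroxiredoxins, with glutathione and thioredoxin as the thiols that recharge them. Of 50 genes, 35 were ranked, 7 of them at least 2-fold higher (20.0% against 15.6% of all ranked genes) and 2 at least 2-fold lower. The median was 0.27. The summed level was 9394 FPKM in WT HSC and 11658 FPKM in GRK6-/- HSC. The share of higher members was near the background, and among the 34 with at least 10 FPKM in both, 6 were higher and 2 lower. The erythroid genes moved with genotype at the same time, from 455 to 2529 FPKM in sum, with Rhag without a row in WT HSC and at 17.6 FPKM in GRK6-/- HSC and Slc4a1 at or near 0 in both, and their part in the differences that follow was not tested.

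A few enzymes of glutathione and thioredoxin stood well above the rest. Gclm, the modifier subunit of the enzyme that limits glutathione synthesis, read 17.6 FPKM in WT HSC and 302 FPKM in GRK6-/- HSC, a 17.2-fold ratio, and 8.54 FPKM in WT CLP and 24.0 FPKM in GRK6-/- CLP. Its catalytic partner Gclc read 11.8 against 11.9 FPKM. The modifier subunit was thus higher without the catalytic one. Gstm5, a glutathione transferase, read 12.6 against 103 FPKM, and Txnrd2, the mitochondrial thioredoxin reductase, 3.45 against 33.6 FPKM. Txnrd2 passed the rank limit through GRK6-/- HSC alone and so had to stand higher there. The cytosolic reductase Txnrd1 read 30.03 against 30.5 FPKM and the transferase Gstm1 129 against 122 FPKM. Mt1, a metallothionein, read 229 against 609 FPKM, Glrx (glutaredoxin) 44.3 against 106 FPKM and Park7 (DJ-1) 96.3 against 215 FPKM. Mgst2 and Sesn1 were the 2 members at least 2-fold lower, at 211 against 93.0 FPKM and 37.7 against 15.4 FPKM.

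Promoters of Gclm and Gstm5 are shown because each holds TGACNNNGC on one strand, the core letters of the antioxidant response element that NRF2 recognises. The windows are again 250 bases before the gene start in RefSeq, build GRCm38.p6, on the gene's strand, with the match in capitals. Gclm is at chr3:122245307-122245556, plus strand and Gstm5 at chr3:107895604-107895853, plus strand.
Gclm: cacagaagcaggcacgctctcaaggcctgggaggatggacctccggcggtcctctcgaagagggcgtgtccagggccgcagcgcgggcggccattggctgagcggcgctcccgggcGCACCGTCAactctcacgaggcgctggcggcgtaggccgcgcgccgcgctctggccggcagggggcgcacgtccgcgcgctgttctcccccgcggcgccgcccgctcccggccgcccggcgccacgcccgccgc
Gstm5: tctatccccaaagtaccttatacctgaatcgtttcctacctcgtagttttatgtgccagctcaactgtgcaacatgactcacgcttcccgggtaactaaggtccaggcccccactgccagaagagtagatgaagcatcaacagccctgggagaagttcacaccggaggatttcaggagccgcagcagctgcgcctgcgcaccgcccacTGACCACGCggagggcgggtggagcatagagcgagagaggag
The match began 134 bases before the start in Gclm, on the other strand, and 42 bases before it in Gstm5. Of all windows of this length, 10.2% held TGACNNNGC. Of the 7 antioxidant genes at least 2-fold higher, 6 had a single window and 3 of these held the letters (Sod1, Gclm and Gstm5). Of the 28 other ranked members, only 17 had a single window, and 1 of these held the letters (Prdx1). Members without a single window, Gclc, Txnrd1 and Gstm1 among them, could not be read, and the contrast was not tested. The windows of Mt1, Park7 and Txnrd2 did not hold them. Here too a match describes the sequence and is not a site.

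The superoxide dismutases and NRF2 differed by less than Gclm, Gstm5 and Txnrd2. Sod1, the cytosolic enzyme, read 471 FPKM in WT HSC and 1048 FPKM in GRK6-/- HSC. Sod2, the mitochondrial enzyme, read 25.3 against 35.1 FPKM, and Sod3, the secreted enzyme, had no row in WT HSC and 0.133 FPKM in GRK6-/- HSC. Only Sod1 of the 3 passed 2-fold. Nfe2l2 (NRF2) read 34.2 against 48.8 FPKM, and Keap1, the adaptor that marks it for degradation, 25.0 against 66.9 FPKM. Cdkn1a, the cell cycle inhibitor p21, was below the rank limit at 17.7 against 8.57 FPKM. Among targets of NRF2, Hmox1 was at 0.177 FPKM in GRK6-/- HSC and without a row in WT HSC, and Nqo1 at 5.03 against 2.34 FPKM. All 6 ranked genes of the NADPH oxidase, which makes superoxide, lay below 0, 2 of them at least 2-fold lower (33.3% against 16.0% of all ranked genes). Ncf4, a cytosolic subunit, read 72.8 against 28.7 FPKM, while Rac1 and Rac2, the small GTPases of the complex, read 135 against 129 FPKM and 246 against 229 FPKM.

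**Figure D5:**
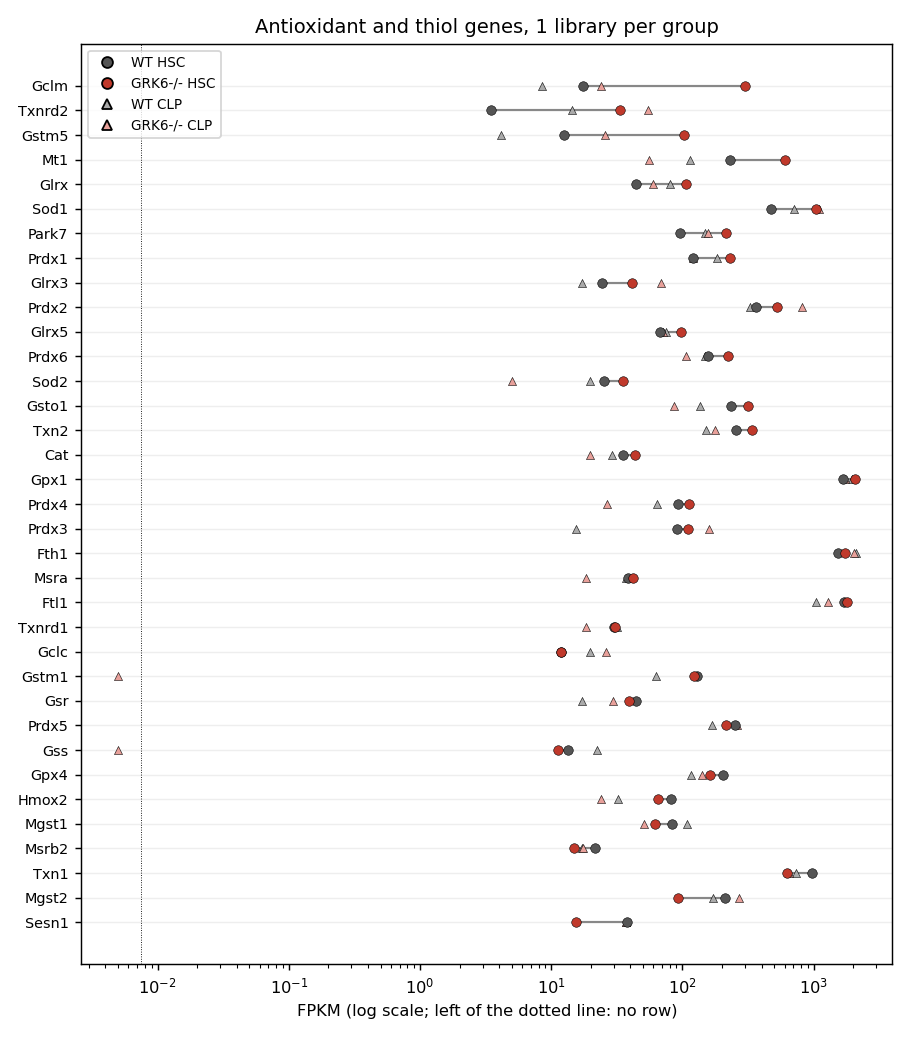
FPKM on a log scale of the 35 ranked antioxidant and thiol genes in each of the 4 libraries, ordered by the difference between the HSC libraries, 1 library per group. Circles are HSC and triangles CLP, grey is WT and red GRK6-/-, and points left of the dotted line have no row. Gclm, Txnrd2 and Gstm5 show the widest gaps, and most other pairs of circles lie close together. Txnrd2 was ranked through GRK6-/- HSC alone.

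Asns, asparagine synthetase, read 2.07 FPKM in WT HSC and 67.1 FPKM in GRK6-/- HSC, and 0.124 FPKM in WT CLP with no row in GRK6-/- CLP. Ddit3 (CHOP), a transcription factor of the stress response, read 64.2 FPKM in GRK6-/- HSC and had no row in WT HSC, with no row in either CLP library, and the row of Mars overlapped its locus in WT HSC. Asns was named after its value was seen.

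DNA damage genes were scattered in both directions. Of 14 ranked kinases and mediators, 5 were at least 2-fold higher, 35.7% against 15.6% of all ranked genes. At least 2-fold lower was 1, 7.14% against 16.0%, and the median was 0.16. Of the 14, 3 (Rad1, Rad50 and Rnf8) passed the limit through GRK6-/- HSC alone and 1 (Rnf168) through WT HSC alone, and among the 10 at 10 FPKM or more in both, 2 were higher and none lower. Chek2, a checkpoint kinase, read 14.1 against 70.7 FPKM, Rad1, a subunit of a checkpoint clamp, 5.46 against 28.8 FPKM, and Smc1a, a cohesin subunit, 59.3 against 163 FPKM. Rnf168, a ubiquitin ligase at breaks, read 23.5 against 3.74 FPKM. The 3 large kinases that respond to breaks and stalled forks were all below the rank limit. Prkdc (DNA-PKcs) read 7.33 against 1.60 FPKM, Atm 9.79 against 13.0 FPKM and Atr 1.68 against 3.33 FPKM. Of 11 ranked genes of double-strand break repair, 2 were at least 2-fold higher and 2 lower (18.2% each way), with a median of -0.51. Parp1 read 26.0 against 123 FPKM and Lig1 57.5 against 138 FPKM, while Fanca read 24.7 against 4.52 FPKM and Rad52 47.7 against 12.4 FPKM. Fanca passed the limit through WT HSC alone. Among the 10 repair genes at 10 FPKM or more in both, 2 were at least 2-fold higher and 1 lower. Of 9 ranked p53 targets, none was at least 2-fold higher and 3 (33.3%) were at least 2-fold lower, against 16.0% of all ranked genes. They were Ddb2 at 23.1 against 5.76 FPKM, Sesn1, and the death effector Bax at 29.0 against 13.0 FPKM. Ddb2 passed the limit through WT HSC alone, and among the 8 at 10 FPKM or more in both, 2 were at least 2-fold lower.

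Replication genes had a median of 0.02 over 28 ranked members, 1 at least 2-fold higher and 3 lower, and mitosis genes 0.28 over 30, 4 higher and 1 lower. Tyms, thymidylate synthase, read 168 against 24.9 FPKM and its regulator E2f1 42.8 against 12.2 FPKM, while Mcm6 read 119 against 168 FPKM and Pcna 337 against 260.2 FPKM. Ccnb1, Aurka and Plk1, which act at entry to mitosis, read 20.2 against 58.6 FPKM, 19.6 against 50.4 FPKM and 19.3 against 45.3 FPKM. Top2a, a topoisomerase of dividing cells, was lower, at 166 against 57.1 FPKM. Myc, a driver of growth and division, read 41.0 against 129 FPKM. Of 36 ranked nucleolar and growth genes, 9 were at least 2-fold higher (25.0%) and 4 at least 2-fold lower, with a median of 0.40. Npm1 (nucleophosmin) read 630.3 against 1467 FPKM and Dkc1 (dyskerin) 29.1 against 75.8 FPKM. Hspd1, a mitochondrial chaperonin, read 74.8 FPKM in WT HSC and had no row in GRK6-/- HSC, while its partner Hspe1 read 202 against 289.6 FPKM.

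Genes of oxidative phosphorylation mostly lay within 2-fold and above 0. All 50 were ranked, 4 were at least 2-fold higher and 1 at least 2-fold lower, and 37 of the 50 lay above 0, with a median of 0.32. Atp5f1, a subunit of the ATP synthase, read 114 against 371 FPKM and Ndufa5, a subunit of complex I, 173 against 63.1 FPKM. Glycolysis enzymes divided: of 20, 4 were at least 2-fold higher and 4 lower (20.0% each way). Ldha, lactate dehydrogenase A, read 457 against 1038 FPKM and Ldhb 85.6 against 33.7 FPKM, and the hexokinases Hk1 and Hk3 read 21.1 against 44.4 FPKM and 139 against 22.1 FPKM. Hsp90aa1 and Hsp90ab1 read 111 against 151 FPKM and 743 against 1067 FPKM, both within 2-fold.

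Signalling and stress lists had few members past 2-fold. Of 13 ranked interferon response genes, 2 were at least 2-fold higher and 2 lower (15.4% each way). Irf9 read 9.85 against 26.3 FPKM and Usp18 24.7 against 3.26 FPKM. Irf9 passed the limit through GRK6-/- HSC alone and Usp18 through WT HSC alone, so their directions were fixed. Among the 11 at 10 FPKM or more in both, 1 was at least 2-fold higher and 1 lower. Of 10 ranked PI3K, AKT and mTOR genes, 2 were higher and 1 lower, with the translation repressor Eif4ebp1 at 139 against 295 FPKM and the kinase Gsk3a at 29.5 against 13.2 FPKM. Both immediate early genes past 2-fold, of 11 ranked, were higher: Zfp36, which destabilises cytokine mRNA, at 26.3 against 83.3 FPKM and the phosphatase Dusp1 at 19.5 against 47.3 FPKM. Of 21 ranked heat shock proteins and chaperones, 1 was at least 2-fold higher and 2 lower, with Dnajb1, a co-chaperone, at 84.3 against 12.7 FPKM. The medians of these 4 lists were 0.15, -0.00, 0.30 and 0.26. Of 9 ranked NRF2 and FOXO regulators, 3 were at least 2-fold higher (33.3%) and 1 lower (11.1%). Of the 9, 1 (Ddit3) passed the limit through GRK6-/- HSC alone and 1 through WT HSC alone. Among the 7 at 10 FPKM or more in both, 2 were higher and none lower. Of 8 ranked cell cycle inhibitors and cyclin D kinases, 1 (12.5%) was higher and none lower. That 1 passed the limit through GRK6-/- HSC alone.

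Cytokine receptors stood in both directions. Of 13 ranked, none was at least 2-fold higher and 3 (23.1%) were at least 2-fold lower. Of these, 1 (Tgfbr1) passed the limit through WT HSC alone and so had to stand lower in GRK6-/- HSC. Below the limit, 11 of 17 members lay above 0, among them Csf1r, the M-CSF receptor, at 0.889 against 11.6 FPKM and Il6st, the shared IL-6 receptor chain, at 0.374 against 6.69 FPKM. Tgfbr1, the type I receptor of TGF-beta, which holds stem cells in quiescence, read 101 FPKM in WT HSC and 0.315 FPKM in GRK6-/- HSC. The difference was -6.28, and the lower value rests on few fragments. In CLP, Tgfbr1 read 3.81 FPKM for WT and 26.8 FPKM for GRK6-/-. It had the most negative difference of all ranked genes with a row in both libraries. Tnfrsf1a, a TNF receptor, read 86.8 against 40.6 FPKM. Of 5 ranked G protein-coupled receptors, the class that GRK6 acts on, none was at least 2-fold higher and 2 (40.0%) were lower. These were the prostaglandin receptor Ptger1 at 61.2 against 12.1 FPKM and the leukotriene receptor Ltb4r1 at 59.1 against 28.2 FPKM. Cxcr4, which holds stem cells in the marrow, was below the rank limit at 6.63 against 0.757 FPKM, while 11 of the 20 such receptors below the limit lay above 0. The Cxcr4 ligand Cxcl12 had no row in WT HSC and 0.146 FPKM in GRK6-/- HSC. Chromatin genes did not pass 2-fold in any of 9 ranked members. Of 6 ranked BCL2 family genes, 1 was at least 2-fold higher (16.7%) and 2 lower (33.3%). Among survival genes, Bcl2 read 10.2 against 37.8 FPKM and Birc3 24.8 against 4.22 FPKM. Birc3 passed the limit through WT HSC alone. Of the 5 BCL2 family genes at 10 FPKM or more in both, 1 was at least 2-fold higher and 1 lower.

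The ends of the ranking need care. All 15 of the largest positive differences and 13 of the 15 largest negative ones belonged to genes with no row in 1 HSC library. In 12 of the 15 and 11 of the 13, a row of another symbol overlapped the same locus in that library. Gm15450 read 2345 FPKM in WT HSC and Rps23 read 2502 FPKM in GRK6-/- HSC at 1 locus, and Rps27 and Gm9846 traded names at another. Small nucleolar RNAs such as Snora33, at 3537 FPKM in GRK6-/- HSC only, lie inside the genes of ribosomal proteins. Over all ranked genes, 37 had no row in WT HSC and 53 none in GRK6-/- HSC, and 62 of these 90 were overlapped in this way. With the 4856 genes that had a row in both, 735 (15.1%) were at least 2-fold higher and 740 (15.2%) at least 2-fold lower.

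Among genes with at least 10 FPKM in both libraries, the largest differences mixed lineage genes with genes of general function. After Car1, Gclm and Blvrb came Prpf4b, a splicing kinase, at 14.8 against 179.9 FPKM, and 1500001M20Rik at 55.8 against 489 FPKM. Utp14a, a nucleolar protein, read 16.9 against 134 FPKM, Uckl1, a uridine kinase-like protein, 15.9 against 125 FPKM, Lin37 25.7 against 188 FPKM and Sugp1 10.3 against 78.8 FPKM. On the other side, Tln1 (talin), which couples integrins to actin, read 319.7 FPKM in WT HSC and 15.9 FPKM in GRK6-/- HSC, a 20.1-fold lower level, and 19.7 FPKM in WT CLP and 207 FPKM in GRK6-/- CLP. Srrm2, a splicing coactivator, read 167 against 13.5 FPKM, Ppp3ca, a calcineurin subunit, 174 against 14.9 FPKM, and Bag6 246 against 23.2 FPKM. Rps28 read 3434 against 269 FPKM and Rps29 257 against 26.6 FPKM, but ribosomal proteins have many near-identical copies, so these rows are uncertain. Sh3bp1, 2300009A05Rik and 5033411D12Rik completed the 10 largest negative differences.

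Genes that were very low in 1 library gave the steepest ratios among those with a row in both. Lias, lipoic acid synthetase, read 0.662 against 63.5 FPKM, and 19.3 FPKM in WT CLP and 21.3 FPKM in GRK6-/- CLP. Il18bp, a secreted cytokine binding protein, read 1.07 against 54.6 FPKM, with no row in CLP. Nanos3, a germ cell protein, read 119.8 against 1.36 FPKM, and Atg16l2, an autophagy gene, 187 against 3.86 FPKM. The lower value of each such pair rests on few fragments. The Y-linked Uty was one of them, at 45.1 against 0.831 FPKM, while the Y-linked Ddx3y read 13.2 against 10.1 FPKM and Eif2s3y 60.1 against 45.3 FPKM.

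Transcript length went with direction at one end. Of 236 ranked genes whose longest transcript reached 6 kb, 9.75% were at least 2-fold higher and 30.9% at least 2-fold lower, with a median of -0.36. In the 5 shorter classes the medians ran from -0.07 to 0.10. In the CLP pair the median of the genes of 6 kb or more was 0.20. Tln1, Srrm2 and Pde5a, at 8393, 8596 and 6728 bases, belong to this class, while Tgfbr1, at 5756 bases, does not. The part of length in their differences was not tested.

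The highest levels were shared. Mir703 headed both libraries, at 51857 FPKM in WT HSC and 79940 FPKM in GRK6-/- HSC, followed by Rplp1 at 12242 and 25894 FPKM. Apart from Elane, the other genes in the top 10 of either library were ribosomal protein genes or a pseudogene of one. Over 69 ribosomal protein genes with a row in both, 2 were at least 2-fold higher, 3 at least 2-fold lower, and the median was 0.17.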

How the data were processed

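Each of the 4 libraries (HSC and CLP, 1 of each genotype) came with 1 table of genes. The values are FPKM computed by the authors with the Tuxedo tools. The submitters' notes name TopHat 1.4.0 and build mm9, and deposited loci use that build. No read counts were used, no value was 0, and a gene without a row was taken as 0. The labels name the groups, with no replicate.

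FPKM were summed by symbol with Python 3.11.15 and pandas 2.3.3. Rows naming several genes were left out, with the 325 genes named in them. A pseudocount of 1 was added before the log2 ratio, which understates the change of low genes. Called means a ratio of at least 2-fold. With 1 library per group no test was run. The calls and the depth estimate, from the smallest FPKM steps of genes with 1 transcript, were tested on simulated data. Transcript lengths came from GENCODE vM1 (mm9).

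The members and the 34 gene lists were chosen with earlier results of these data known. Named genes were Grk6, genes the study measured or sorted on, list members with the largest differences or at least 100 FPKM, sex-linked genes, and the 15 (or 10, at 10 FPKM in both) largest differences and 10 highest levels. Other named genes were chosen after their values were seen. A few genes of the lists are not reported here by name. Alternatives changed the pseudocount, the filter, the scaling, the sum over rows and the threshold. Those on missing rows, joint rows and transcript length were added after seeing the data.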

Additional observations from a re-analysis of the deposited data

Results flagged for a closer look

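With 1 library of each genotype, a result was picked out here where GRK6-/- stood at least 2-fold above WT in one sorted fraction and at least 2-fold below it in the other, on the log2((FPKM + 1) ratio) scale. The differences between the fractions were not tested. The median of the megakaryocyte and platelet genes was -1.86 in HSC and 1.06 in CLP. Of the 7 ranked genes in that list, 4 passed the limit through WT HSC alone, so their direction in HSC was fixed. With 10 FPKM required in both HSC libraries, the HSC median was -0.67, short of 2-fold.

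Looked at were the ranked list members, the genes with the largest differences and those with the highest levels. Of those that had a row in all 4 libraries and were past the rank limit in the HSC pair and in the CLP pair, 31 genes stood at least 2-fold in opposite directions, 15 of them higher and 16 lower in GRK6-/- HSC. Over all ranked genes, 31.6% in the HSC pair and 44.1% in the CLP pair were at least 2-fold either way. The share in opposite directions over all ranked genes was not counted, so the 31 cannot be called many or few. Among platelet and granulocyte genes, lower in HSC and higher in CLP, were Itga2b (-3.21 in HSC and 3.74 in CLP), Gp9 (-1.86 in HSC and 4.65 in CLP), Cd9 (-1.06 in HSC and 1.06 in CLP), Fcnb (-2.26 in HSC and 5.95 in CLP), Hp (-1.23 in HSC and 1.24 in CLP) and Lcn2 (-1.49 in HSC and 2.03 in CLP). In the same order were the replication and repair genes E2f1 (-1.73 in HSC and 5.02 in CLP), Tyms (-2.70 in HSC and 1.69 in CLP) and Fanca (-2.22 in HSC and 2.15 in CLP), and Tgfbr1 (-6.28 in HSC and 2.53 in CLP), Tln1 (-4.24 in HSC and 3.33 in CLP), Plscr4 (-5.22 in HSC and 2.45 in CLP), Birc3 (-2.31 in HSC and 3.87 in CLP), H2-Ab1 (-2.00 in HSC and 2.94 in CLP), Noc4l (-2.19 in HSC and 1.73 in CLP) and Rps28 (-3.67 in HSC and 1.62 in CLP). Among these, Itga2b, Gp9, Fcnb, Fanca, Tgfbr1, Plscr4 and Birc3 passed the limit through WT HSC alone. Among the genes that follow, Nup43, Slfn10-ps and F13a1 passed it through GRK6-/- HSC alone. The limit fixed the direction of all of these in HSC. Higher in HSC and lower in CLP were the mitosis genes Ccnb1 (1.49 in HSC and -3.39 in CLP), Aurka (1.32 in HSC and -1.42 in CLP) and Plk1 (1.19 in HSC and -1.16 in CLP). In that order too were the growth genes Myc (1.63 in HSC and -1.89 in CLP), Cad (1.16 in HSC and -1.05 in CLP), Nhp2 (1.07 in HSC and -1.05 in CLP), Nop16 (1.08 in HSC and -3.50 in CLP) and Ldha (1.18 in HSC and -1.27 in CLP), and Nup43 (4.74 in HSC and -1.77 in CLP), Rplp1 (1.08 in HSC and -1.40 in CLP), Slfn10-ps (4.98 in HSC and -3.62 in CLP), Bcl2 (1.79 in HSC and -1.07 in CLP), F13a1 (2.10 in HSC and -5.58 in CLP), Mt1 (1.4 in HSC and -1.04 in CLP) and Zfp36 (1.63 in HSC and -1.05 in CLP).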

How the results depend on the processing

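No paired analysis was possible because each group is 1 library and the labels carry no replicate numbers. For the same reason no library could be left out. The counts of genes at least 2-fold higher and lower (772 and 793) became 467 and 434 with 10 FPKM required in both HSC libraries, 2249 and 2097 with no filter, 138 and 151 with 100 FPKM required in 1 library, and 244 and 328 at a 4-fold threshold. Under the other 8 settings both stayed within 1.5 times, from 657 to 794 higher and from 682 to 824 lower. The median of the megakaryocyte and platelet genes was -0.67 rather than -1.86 with 10 FPKM required in both, since 4 of its 7 genes leave under that filter. Grk6 moved to a difference of 0.99 with a pseudocount of 5. No named gene and no list at least 2-fold apart changed direction. Of 441 named genes, 17 moved across the 2-fold line or across 0 with a pseudocount of 5, 3 with a pseudocount of 0.1 and 2 after rescaling. Dividing GRK6-/- HSC by 1.01 set the median ratio to 1.

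Genes with no row in a library, few cells per library and amplification before sequencing limit every value. Low levels rest on few fragments, so ratios against them are unstable.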
